A study of Mus musculus with 12 samples.

Results

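The 9 genes described here are Armcx5, Marcksl1 and Eif2b3, which were higher in mice without Trem2, and Mkks, Plod1, Rims4, Lman2l, Prkab2 and Spred1, which were lower. They were picked from these same libraries because their genotype difference was small and had the same sign at both ages sampled, so the genotype differences below are a description of the choice and are given with no p-value. They are 9 of 56980 gene identifiers in the count table, and all 9 were among the 19152 genes with enough counts to test. The tissue was the hippocampus of 12 male mice, sequenced as bulk RNA with 1 library per mouse. Mice of 2 genotypes were sampled at 3 and at 9 months, with 3 mice in each of the 4 groups. Trem2-KO stands for mice lacking Trem2 on top of the App NL-G-F allele, and App-KI for mice with that allele and intact Trem2. App NL-G-F replaces mouse App with a humanised form bearing familial Alzheimer mutations and leads to amyloid-β plaques. It was present in all 12 mice, and no group without it is analysed here. The labels name neither the strain, the number of backcrosses nor the part of Trem2 that was deleted, and nothing in them says whether mice of 1 group were littermates.

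Total counts ran from 14627892 to 24594655 per library, and the 9 genes had 304 to 5737 reads each in every library, far above the limit of 3 counts that an unseen gene allows (0.122 to 0.206 CPM, the usual depth-scaled count, here on scaled library sizes). Trem2 itself was at 1.98 ± 0.165 CPM in Trem2-KO and 9.19 ± 1.15 CPM in App-KI mice at 3 months (SD, n = 3 each), and at 3.74 ± 0.11 CPM in Trem2-KO and 52.7 ± 2.9 CPM in App-KI mice at 9 months. Choroid plexus markers, from a tissue that borders the hippocampus, varied within groups: the summed level of 10 such genes ran from 1883 to 3329 CPM in Trem2-KO and from 375 to 4197 CPM in App-KI mice at 3 months, and from 362 to 7761 CPM in Trem2-KO and from 340 to 3650 CPM in App-KI mice at 9 months. The 10 markers of meningeal and perivascular fibroblasts did not overlap between genotypes at 9 months, with 303 to 419 CPM in Trem2-KO and 175 to 221 CPM in App-KI mice. At 3 months they did overlap, with 168 to 244 CPM in Trem2-KO and 175 to 232 CPM in App-KI mice. None of the markers in these lists was at 0 in all libraries.

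TREM2 is a lipid-sensing receptor of microglia, the macrophages of the brain, and most genes known to depend on it are microglial. The 9 genes here have other roles, some in machinery of many cell types and some tied to neurons. Eif2b3 encodes the gamma subunit of eIF2B, the exchange factor that reloads the initiation factor eIF2 with GTP so that translation can begin. Lman2l encodes a lectin of the early secretory pathway that binds glycoproteins on their way out of the endoplasmic reticulum (ER), and Plod1 a lysyl hydroxylase that modifies collagen chains in that compartment. Mkks, also called BBS6, is a chaperonin-like protein that helps assemble the BBSome, a coat complex of cilia, and is mutated in Bardet-Biedl and McKusick-Kaufman syndromes. Rims4 is a short member of the RIM family, whose long members organise the sites of transmitter release. Spred1 restrains Ras-ERK signalling by bringing neurofibromin to the membrane, and Prkab2 is a regulatory beta subunit of the energy sensor AMPK. Marcksl1 is a membrane- and actin-binding substrate of protein kinase C that is abundant in developing neurons, and Armcx5 belongs to an X-linked family of armadillo-repeat proteins, some of which act on mitochondria.

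Armcx5 (ENSMUSG00000072969, chromosome X) had the largest genotype difference of the 9 genes at 3 months. It stood at 41.5, 39.25 and 44.2 CPM in Trem2-KO mice, against 30.25, 29.7 and 28.2 CPM in App-KI mice at 3 months. At 9 months it stood at 35.7, 38.5 and 39.9 CPM in Trem2-KO mice, against 28.6, 29.3 and 27.4 CPM in App-KI mice. All 6 Trem2-KO libraries lay above all 6 App-KI libraries. The log2 fold change (Trem2-KO over App-KI, with the standard error of edgeR's model over all 12 libraries) was 0.50 ± 0.07 at 3 months and 0.42 ± 0.07 at 9 months, a level in Trem2-KO of 142% and 134% of that in App-KI.

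Eif2b3 (ENSMUSG00000028683, chromosome 4) was higher by a similar amount at both ages. It had 31.2, 29.4 and 27.8 CPM in Trem2-KO mice, against 22.1, 22.3 and 23.9 CPM in App-KI mice at 3 months. It had 25.7, 30.3 and 27.8 CPM in Trem2-KO mice, against 20.9, 21.8 and 21.0 CPM in App-KI mice at 9 months. The genotypes did not overlap, and the lowest Trem2-KO library at 9 months was closer to the App-KI libraries than any other. The log2 fold change was 0.37 ± 0.08 at 3 months and 0.40 ± 0.08 at 9 months.

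Marcksl1 (ENSMUSG00000047945, chromosome 4) differed by age as well as by genotype. It stood at 149, 155 and 153 CPM in Trem2-KO mice, against 116, 123 and 123 CPM in App-KI mice at 3 months. It stood at 108, 115 and 120 CPM in Trem2-KO mice, against 103, 93.5 and 92.2 CPM in App-KI mice at 9 months. Within each age the genotypes were apart, but the Trem2-KO libraries at 9 months lay in or below the range of the App-KI libraries at 3 months. Its log2 fold change was 0.34 ± 0.05 at 3 months and 0.25 ± 0.06 at 9 months.

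**Figure D1:**
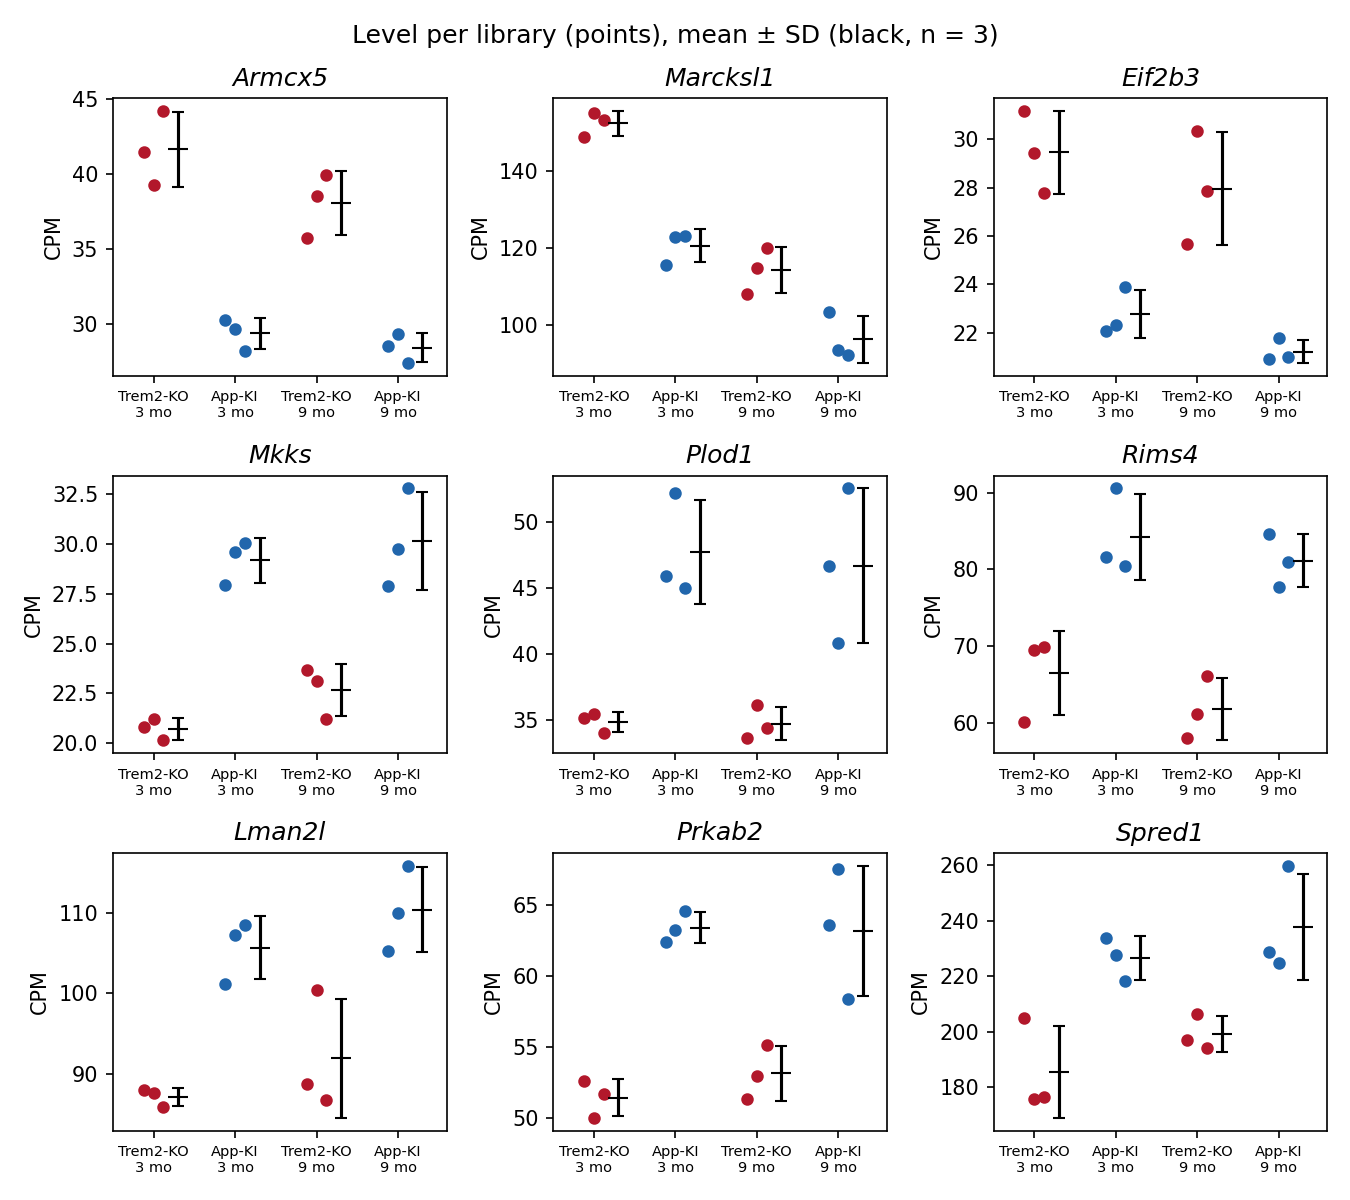
Level in CPM on scaled library sizes (vertical axes, which do not start at 0) of the 9 genes in each of the 12 libraries, by genotype and age; points are libraries, and black bars are the mean ± SD of 3. Within each age the Trem2-KO points lie above the App-KI points for Armcx5, Marcksl1 and Eif2b3 and below them for the other 6 genes.

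Of the lower genes, Mkks (ENSMUSG00000027274, chromosome 2) had the largest difference at 3 months. It had 20.8, 21.2 and 20.1 CPM in Trem2-KO mice, against 27.9, 29.6 and 30.05 CPM in App-KI mice at 3 months. It had 23.65, 23.1 and 21.2 CPM in Trem2-KO mice, against 27.9, 29.8 and 32.8 CPM in App-KI mice at 9 months. No Trem2-KO library reached the lowest App-KI library of either age. Its log2 fold change was -0.49 ± 0.08 at 3 months and -0.41 ± 0.08 at 9 months, which put the Trem2-KO level at 71.1% and 75.2% of the App-KI level.

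Both genes of the secretory pathway were lower. Plod1 (ENSMUSG00000019055, chromosome 4) stood at 35.1, 35.5 and 34.0 CPM in Trem2-KO mice, against 45.9, 52.2 and 45.0 CPM in App-KI mice at 3 months. At 9 months it stood at 33.7, 36.1 and 34.4 CPM in Trem2-KO mice, against 46.7, 40.9 and 52.5 CPM in App-KI mice. The 6 Trem2-KO libraries lay close together, while the App-KI libraries were spread, with an SD of 5.84 CPM in App-KI at 9 months against 1.26 CPM in Trem2-KO mice of that age. The log2 fold change was -0.45 ± 0.08 at 3 months and -0.42 ± 0.08 at 9 months.

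Lman2l (ENSMUSG00000001143, chromosome 1) had 87.9, 87.6 and 85.9 CPM in Trem2-KO mice, against 101, 107 and 108 CPM in App-KI mice at 3 months. It had 88.65, 100.4 and 86.7 CPM in Trem2-KO mice, against 105, 110.0 and 116 CPM in App-KI mice at 9 months. The genotypes did not overlap, although Trem2-KO replicate 2 at 9 months came within 1 CPM of the lowest App-KI library, which was of 3 months. The log2 fold change was -0.28 ± 0.06 at 3 months and -0.26 ± 0.06 at 9 months.

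Rims4 (ENSMUSG00000035226, chromosome 2) stood at 60.2, 69.5 and 69.8 CPM in Trem2-KO mice, against 81.6, 90.6 and 80.4 CPM in App-KI mice at 3 months. It stood at 58.0, 61.2 and 66.1 CPM in Trem2-KO mice, against 84.6, 77.8 and 81.0 CPM in App-KI mice at 9 months. All Trem2-KO libraries were below all App-KI libraries. Its log2 fold change was -0.34 ± 0.07 at 3 months and -0.39 ± 0.07 at 9 months.

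The signalling genes had the smallest differences among the lower genes besides Lman2l. Prkab2 (ENSMUSG00000038205, chromosome 3) had 52.6, 50.02 and 51.7 CPM in Trem2-KO mice, against 62.4, 63.25 and 64.5 CPM in App-KI mice at 3 months. It had 51.3, 53.0 and 55.1 CPM in Trem2-KO mice, against 63.6, 67.5 and 58.4 CPM in App-KI mice at 9 months. The lowest App-KI value, replicate 3 at 9 months, stayed above the highest Trem2-KO value. The log2 fold change was -0.30 ± 0.06 at 3 months and -0.25 ± 0.06 at 9 months.

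Spred1 (ENSMUSG00000027351, chromosome 2), the gene with the most reads of the 9, had 205, 176 and 176 CPM in Trem2-KO mice, against 234, 228 and 218 CPM in App-KI mice at 3 months. It had 197, 206 and 194 CPM in Trem2-KO mice, against 229, 225 and 260 CPM in App-KI mice at 9 months. Replicate 1 of Trem2-KO at 3 months and replicate 3 of App-KI at 9 months stood apart from their groups, and the genotypes still did not overlap. The log2 fold change was -0.29 ± 0.06 at 3 months and -0.25 ± 0.06 at 9 months.

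**Figure D2:**
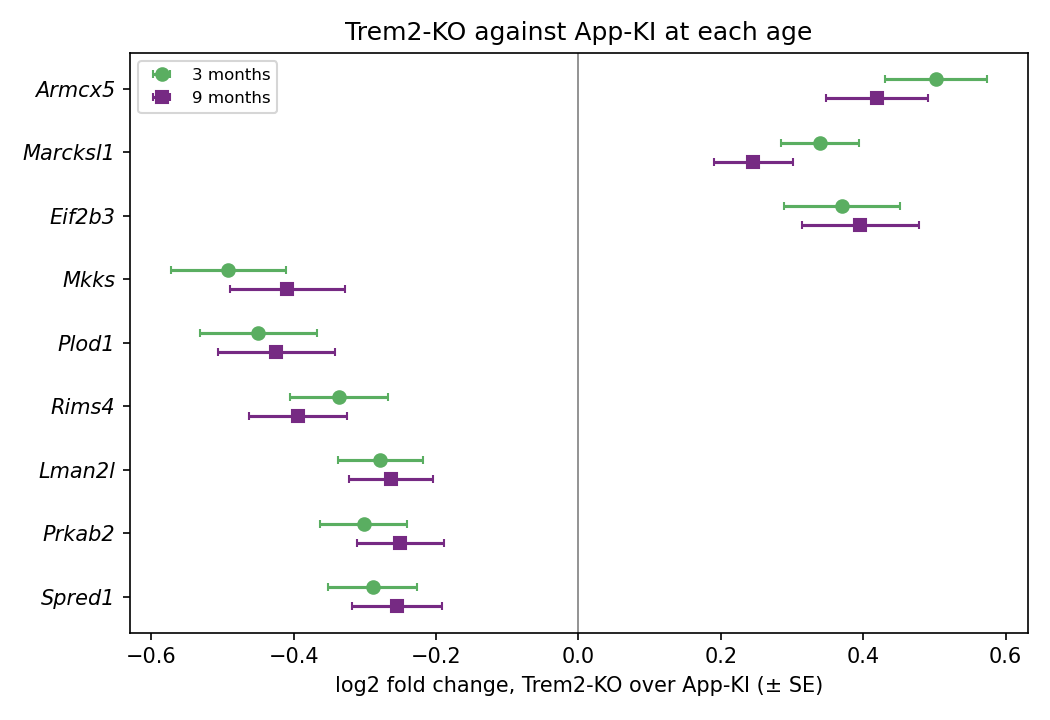
Log2 fold change of Trem2-KO over App-KI (horizontal axis) for the 9 genes at 3 months (circles) and 9 months (squares), with the standard error of the edgeR model as bars. The values run from 0.25 to 0.50 for the 3 higher genes and from -0.49 to -0.25 for the 6 lower genes, with the 2 ages close together for each gene.

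With edgeR's quasi-likelihood test, all 9 genes passed an adjusted p of 0.05 over all tested genes at both ages, 3 higher and 6 lower. The same rule called 0.59% of all tested genes at 3 months (0.167% higher and 0.423% lower) and 2.08% at 9 months (0.684% higher and 1.39% lower). The count of 9 follows from how the genes were picked, and nothing is read from it. In all, 45 genes were called at both ages (0.235% of tested genes), 9 of them higher (0.047%) and 36 lower (0.188%), with 0 of opposite sign. The mean absolute log2 fold change over both ages had a median of 0.36 in the 9 genes, with a range of 0.27 to 0.46, and a median of 0.34 in the other 36. Of those 36, 19 lay within the range of the 9 and 11 above it, so the 9 are of ordinary size among them. With a median of 5.86 the 9 genes were more abundant in log2 CPM than the tested genes as a whole, with a median of 3.80. In 8 of the 9 genes, all but Marcksl1, the 6 Trem2-KO and 6 App-KI libraries did not overlap, and 1.91% of all tested genes had such a split. Within 1 age the groups did not overlap for any of the 9 genes, against a background of 17.6% of tested genes at 3 months and 17.3% at 9 months. The difference between the log2 fold changes at 9 and 3 months ran from -0.09 ± 0.08 for Marcksl1 to 0.08 ± 0.11 for Mkks, and the choice of genes with the same sign limits it.

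Which of these genes were called changed when a library was left out. The number of the 9 called at 3 months was 5, 3 and 2 without Trem2-KO replicates 1, 2 and 3 of that age, and 6, 3 and 5 without App-KI replicates 1, 2 and 3. At 9 months it was 6 without each Trem2-KO replicate of that age in turn, and 6, 6 and 3 without App-KI replicates 1, 2 and 3. Calls over all tested genes moved too. At 3 months they were 54, 31 and 26 without Trem2-KO replicates in that order, and 75, 33 and 53 without App-KI ones, against 113. At 9 months they were 213, 331 and 556 and then 241, 306 and 175, against 398 with all libraries. Armcx5 was called at both ages without each of the 12 libraries in turn, Marcksl1 at 3 months and Rims4 at 9 months likewise. The direction of all 9 genes held in all of these fits. With the mean log2 CPM of the fibroblast markers as a covariate, 7 of the 9 were called at 3 months and 0 at 9 months. Over all 19152 tested genes that fit called 106 at 3 months and 8 at 9 months, against 113 and 398 without the covariate. At 9 months the marker sums of the genotypes are apart, as given above, and the covariate took the median standard error over all tested genes to 0.259, against 0.123 without it. With this covariate the 9-month log2 fold change moved by more than 1.5 times toward 0 for Lman2l (-0.06 ± 0.12), Plod1 (-0.20 ± 0.17), Mkks (-0.24 ± 0.17) and Rims4 (-0.24 ± 0.15). It was 0.45 ± 0.17 for Eif2b3, 0.36 ± 0.15 for Armcx5, 0.31 ± 0.12 for Marcksl1, -0.36 ± 0.13 for Prkab2 and -0.29 ± 0.14 for Spred1. Whether meningeal tissue has a part in the 9-month differences was not tested further.

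Promoter windows of 7 of the 9 genes were matched by symbol in RefSeq on build GRCm38.p6, from 250 bases before to 50 bases after the annotated start; Rims4 and Eif2b3 had no entry. The 4 shown are those of the higher genes with an entry and of the lower genes with the largest differences. Armcx5 and Marcksl1 were higher in Trem2-KO, and Mkks and Plod1 were lower. Whether any of these genes share a regulator was not tested. The windows are chrX:135742442-135742741 on the plus strand for Armcx5, chr4:129513331-129513630 on the plus strand for Marcksl1, chr2:136891357-136891656 on the minus strand for Mkks and chr4:147936727-147937026 on the minus strand for Plod1, while the count table was made on GRCm39. Each is written 5′ to 3′ along the gene, and capitals mark matches to any of the motifs named after the sequences.
Armcx5: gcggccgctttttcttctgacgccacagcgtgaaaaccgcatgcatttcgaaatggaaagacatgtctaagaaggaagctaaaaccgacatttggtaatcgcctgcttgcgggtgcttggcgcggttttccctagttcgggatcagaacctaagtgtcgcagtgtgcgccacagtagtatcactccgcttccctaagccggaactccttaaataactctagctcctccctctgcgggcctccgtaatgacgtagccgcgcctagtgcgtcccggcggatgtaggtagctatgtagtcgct
Marcksl1: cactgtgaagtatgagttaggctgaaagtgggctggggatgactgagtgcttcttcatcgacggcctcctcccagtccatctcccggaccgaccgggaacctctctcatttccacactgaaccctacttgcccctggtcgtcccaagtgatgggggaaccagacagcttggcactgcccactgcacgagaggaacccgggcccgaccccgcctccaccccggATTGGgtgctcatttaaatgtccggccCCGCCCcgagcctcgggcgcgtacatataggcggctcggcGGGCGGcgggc
Mkks: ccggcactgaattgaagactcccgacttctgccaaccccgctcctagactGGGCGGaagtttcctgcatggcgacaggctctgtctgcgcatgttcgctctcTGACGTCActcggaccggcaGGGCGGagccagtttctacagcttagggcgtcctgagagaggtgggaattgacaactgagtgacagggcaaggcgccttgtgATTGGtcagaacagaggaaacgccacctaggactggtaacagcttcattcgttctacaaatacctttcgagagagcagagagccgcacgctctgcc
Plod1: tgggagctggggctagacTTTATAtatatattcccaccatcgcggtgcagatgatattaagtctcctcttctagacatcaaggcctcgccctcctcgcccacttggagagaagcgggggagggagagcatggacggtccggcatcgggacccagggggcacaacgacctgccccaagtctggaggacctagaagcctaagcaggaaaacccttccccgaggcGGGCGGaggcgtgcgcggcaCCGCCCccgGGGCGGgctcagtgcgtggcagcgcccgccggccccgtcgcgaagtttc

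Motifs were searched on both strands. They were the GC box GGGCGG, found in 35.7% of all 32851 promoter windows of the same length, the CCAAT box CCAAT (37.4%), the E-box CACGTG (7.2%), the TATA box TATAAA (13.6%), the cyclic AMP response element TGACGTCA (1.8%), the ETS motif CCGGAAG (8.9%), the NRF1 motif (4.6%) and the ER stress element (0.1%), which holds a CCAAT box. The GC box was in the windows of Marcksl1, Mkks, Plod1, Lman2l, Prkab2 and Spred1, with 1 to 5 matches, and the CCAAT box in those of Marcksl1, Mkks and Lman2l. Mkks alone held the cyclic AMP response element and Plod1 alone the TATA box letters, at the upstream end of its window. The Armcx5 window held none of these letters, and no window held the E-box, ETS, NRF1 or ER stress motif. GC content ran from 54.0% in Armcx5 to 72.3% in Spred1, against a median of 52.7% in all windows.

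The age comparison averaged over genotypes was not used to pick the genes. In this balanced design its size is uncorrelated with both genotype differences. Its test uses the same estimate of spread per gene as theirs, so its p-values are not fully independent of the choice. This age comparison called 17.0% of all tested genes by edgeR (9.26% higher and 7.7% lower). Marcksl1 was the only one of the 9 genes called. Its level was lower at 9 months by a log2 fold change of -0.37 ± 0.04 (edgeR, adjusted p = 1.04e-06), and by a similar amount within each genotype, with -0.42 ± 0.05 in Trem2-KO (edgeR, adjusted p = 7.63e-05) and -0.32 ± 0.06 in App-KI (edgeR, adjusted p = 0.000728). These comparisons called 8.7% of tested genes in Trem2-KO (5.68% higher and 3.02% lower) and 6.66% in App-KI (3.95% higher and 2.71% lower). Each shares libraries with the genotype differences that picked the genes, so its p-value is not independent of that choice. Within each genotype the 3 libraries at 9 months lay below the 3 at 3 months. The 8 markers of immature neurons, in which Marcksl1 is also known to be high, had summed levels of 447 to 540 CPM at 9 months and 601 to 661 CPM at 3 months in Trem2-KO, and of 482 to 524 CPM at 9 months and 620 to 641 CPM at 3 months in App-KI mice. Averaged over genotypes, 5 of these 8 markers fell and 0 rose, with a median of -0.37. They were Dcx (-0.47 ± 0.09), a microtubule-binding protein of new neurons, the transcription factor Sox11 (-0.32 ± 0.06), the neuronal tubulin Tubb3 (-0.28 ± 0.04), the tubulin-binding stathmin Stmn1 (-0.41 ± 0.06) and Igfbpl1 (-2.65 ± 0.33). By genotype edgeR called 0 of the list at either age, as did DESeq2 (unadjusted p under 0.05 in 0 at 3 months and 4 at 9 months), with medians of 0.05 at 3 months and -0.03 at 9 months, where Marcksl1 differed by 0.34 and 0.25. In bulk RNA, fewer cells of a type and less RNA per cell cannot be told apart.

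The other 8 genes were not called by age. Averaged over genotypes, their log2 changes at 9 months ran from -0.09 ± 0.05 for Armcx5 to 0.09 ± 0.06 for Mkks, with adjusted p of edgeR from 0.21 for Spred1 to 0.876 for Plod1. Spred1 was called without Trem2-KO replicate 1 of 3 months, at a change of 0.12. These age changes were smaller than the genotype differences of the same genes at either age. The genes were picked by genotype and not by age, so the choice favoured this order and nothing is read from it.

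**Figure D3:**
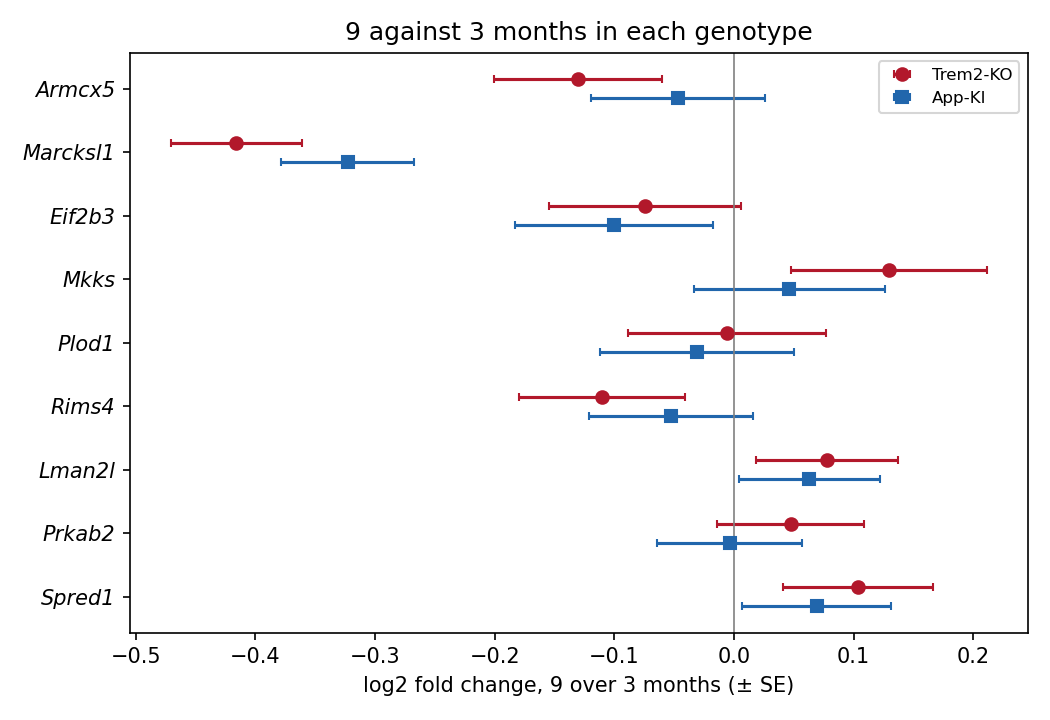
Log2 fold change of 9 over 3 months (horizontal axis) for the 9 genes in Trem2-KO (circles) and App-KI mice (squares), with the standard error of the edgeR model as bars. Marcksl1 lies at -0.42 and -0.32, and the other genes lie between -0.13 and 0.13.

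Markers of other cell types were read out beside the 9 genes. For microglia, the summed level of 12 markers was 553 to 576 CPM in Trem2-KO and 579 to 608 CPM in App-KI mice at 3 months, and 887 to 960 CPM in Trem2-KO and 1517 to 1629 CPM in App-KI mice at 9 months. Their median log2 fold change by genotype was -0.09 at 3 months with 0 of 12 called (edgeR and DESeq2, with 3 at an unadjusted p under 0.05) and -0.74 at 9 months with 10 called lower, and they rose with age in both genotypes, with 10 of 12 called in Trem2-KO and 12 in App-KI. The 9 genes were picked for a like genotype difference at both ages, so that part of the contrast with the microglial list was set by the choice. Bulk counts do not place a transcript in a cell type. Among 8 excitatory and 8 inhibitory neuron markers, edgeR and DESeq2 made 0 calls by genotype at either age, with unadjusted p under 0.05 in 1 excitatory marker at 3 months and 2 at 9 months and in 0 inhibitory ones. By edgeR, astrocyte markers had 1 of 8 lower at 3 months and 2 of 8 lower at 9 months, where DESeq2 called 1 and 3. The same edgeR rule called 0.59% and 2.08% of all tested genes. Summed levels of the astrocyte markers did not overlap between genotypes, with 4001 to 4115 CPM in Trem2-KO and 4223 to 4439 CPM in App-KI mice at 3 months, and 5263 to 5694 CPM in Trem2-KO and 6008 to 6428 CPM in App-KI mice at 9 months. Oligodendrocyte precursor markers also did not overlap at 9 months, with 237 to 242 CPM in Trem2-KO and 278 to 304 CPM in App-KI mice. Of these 6, edgeR called 3 lower at that age and 0 at 3 months, where 2 had an unadjusted p under 0.05. Endothelial markers had 1 of 8 lower at 3 months and 1 of 8 higher at 9 months, and mural cell markers 0 of 8 at 3 months and 1 of 8 higher at 9 months. Summed levels of both lists overlapped at 3 months and were apart at 9 months, higher in Trem2-KO. At 9 months endothelial sums were 286 to 301 CPM in Trem2-KO and 236 to 258 CPM in App-KI mice. Mural sums at that age were 309 to 384 CPM in Trem2-KO and 217 to 307 CPM in App-KI mice. At an unadjusted p under 0.05 in edgeR there were 2 and 4 endothelial and 1 and 2 mural markers. All tested genes had 11.2% and 13.6% at that limit. Markers of myelinating oligodendrocytes, choroid plexus and red blood cells had 0 calls by edgeR or DESeq2 and 0 at an unadjusted p under 0.05 at either age. Of the 10 fibroblast markers edgeR called 0 at either age, with 1 at an unadjusted p under 0.05 at 3 months and 9 at 9 months, where DESeq2 called 5. The part of RNA from these cell types in the differences of the 9 genes was not tested.

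A stretch of chromosome from another strain would hold neighbouring genes too, so the genes around each of the 9 were read out. Rims4, Mkks and Spred1 lie on chromosome 2, Plod1, Marcksl1 and Eif2b3 on chromosome 4, and Lman2l, Prkab2 and Armcx5 on chromosomes 1, 3 and X. On chromosome 2, 237 tested genes lie between Spred1 and Mkks and 235 between Mkks and Rims4. On chromosome 4, 158 tested genes lie between Eif2b3 and Marcksl1 and 241 between Marcksl1 and Plod1. Of the genes called at both ages, chromosome 2 held 4 of its 1438 tested genes (0.278%) and chromosome 4 held 4 of 1071 (0.373%). On each, 3 of the 4 are among the 9. Of all tested genes 0.235% were called at both ages. Chromosomes 12 (5 of 684, 0.731%) and 10 (5 of 880, 0.568%) had higher shares and hold none of the 9. None of the 9 lies on chromosome 17, where Trem2 is. There 3 of 870 tested genes (0.345%) were called at both ages, a count from which Trem2 itself was not taken out.

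Among the 10 tested genes on each side of each member, 180 in all, 1 was called at 3 months and 2 at 9 months, or 0.556% and 1.11%, against the 0.59% and 2.08% of all tested genes given above. The call at 3 months was Uggt1, the folding sensor that reglucosylates misfolded glycoproteins in the ER, near Lman2l, which fell by 0.40 ± 0.08 (edgeR, adjusted p = 0.0164) and had -0.20 ± 0.08 at 9 months. At 9 months the calls were Matn4 near Rims4, an extracellular matrix protein, which fell by 0.44 ± 0.11 (edgeR, adjusted p = 0.039), and Lamp5 near Mkks, a lysosome-associated membrane protein of some interneurons, which fell by 0.29 ± 0.07 (edgeR, adjusted p = 0.0398). The neighbourhoods differed from each other. Around Lman2l, 7 of the 10 nearest tested genes, 5 on each side, were lower at both ages as Lman2l was, with medians of -0.26 at 3 months and -0.175 at 9 months. On one side all 5 had negative values at both ages, the first 4 of which are named here after their values were seen: Fer1l5, Kansl3 (-0.18 ± 0.05 and -0.06 ± 0.05), Arid5a (-0.38 ± 0.11 and -0.16 ± 0.11), Neurl3 (-0.34 ± 0.31 and -0.53 ± 0.27) and Uggt1. Over 20 neighbours of Lman2l the medians were -0.003 and -0.06, with 9 of its sign at both ages. Around Marcksl1 8 of the 10 nearest genes shared its sign at both ages, with medians of 0.06 and 0.05, and 10 of 20 did so. Around Mkks the 10 nearest had medians of 0.14 and 0.175, opposite to Mkks, and 1 of the 10 shared its sign at both ages. For the other 6 genes 3 to 6 of the 10 nearest shared the sign at both ages. No test was made of these counts. Around Eif2b3, Marcksl1, Plod1, Spred1, Armcx5 and Prkab2 none of the 20 neighbours was called at either age. A difference in strain background was not tested, since the counts carry no sequence variants and the labels give no strain.

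**Figure D4:**
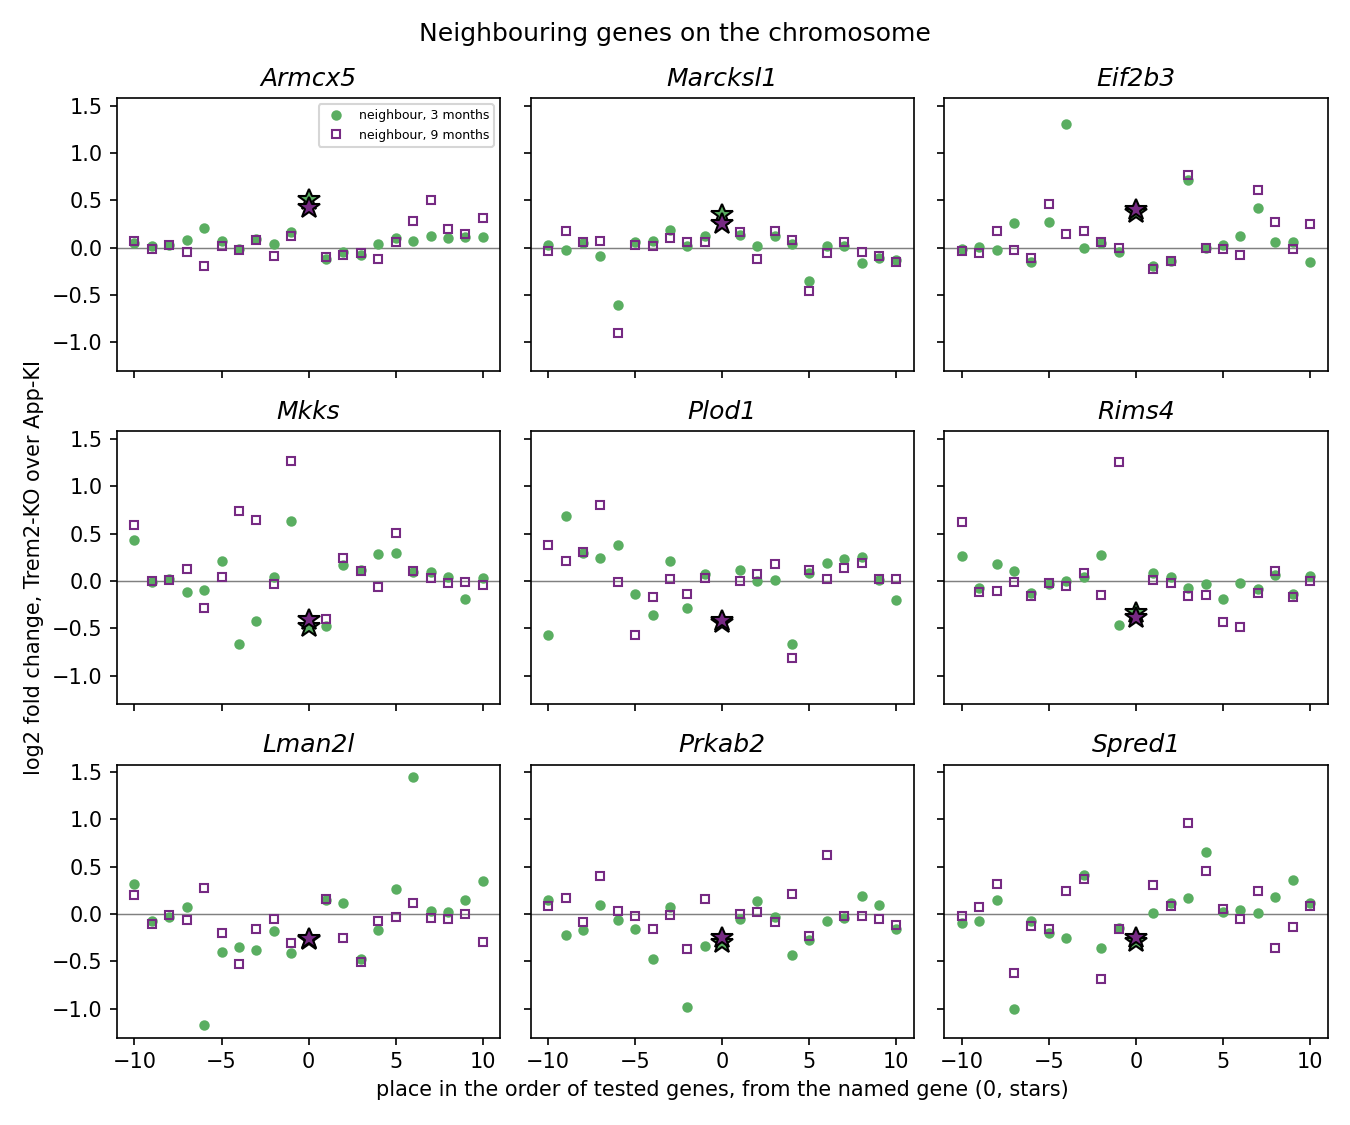
Log2 fold change of Trem2-KO over App-KI (vertical axes) for the 10 tested genes on each side of each of the 9 genes, placed by their order along the chromosome (horizontal axes, in genes), at 3 months (filled circles) and 9 months (open squares); stars mark the named gene. Neighbours scatter on both sides of 0, with 1 of 180 called at 3 months and 2 at 9 months.

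The direct neighbours with which Mkks and Lman2l share exon sequence were chosen for mention after their values were seen. Slx4ip, a partner of the SLX4 nuclease scaffold, lies next to Mkks on the opposite strand and shares 172 exon bases with it, 5.33% of the exon bases of Mkks. It had -0.48 ± 0.14 at 3 months and -0.41 ± 0.14 at 9 months, near the values of Mkks, and was not called (edgeR, adjusted p = 0.115 and 0.147). Fer1l5, a ferlin family gene on the strand opposite Lman2l, shares 103 exon bases with it, 1.4% of those of Lman2l, and had -0.41 ± 0.12 and -0.30 ± 0.12, also not called. Armcx5 shares 456 exon bases, 10.7% of its own, with Gprasp1 on the same strand, which encodes a sorting protein of G protein-coupled receptors. Gprasp1 had a far higher mean count, 10900 per library, against 418 to 918 for Armcx5. The values of Gprasp1 were -0.12 ± 0.06 and -0.10 ± 0.06, the other direction from Armcx5. Annotated transcripts AL731706.1 and AL731706.2 cover 29.3% and 5.58% of the exon bases of Mkks on its own strand, and both had a mean count of 0. How reads in shared exons were assigned, and whether strand was used, is not stated for these data, so counts in these stretches are uncertain. Rims4, Spred1, Plod1, Marcksl1 and Eif2b3 share no exon base with another annotated gene, and Prkab2 shares 0.177%.

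The partners of each gene in its own complex or family were read out by 9 lists. Of these partners, 95 tested genes other than the 9, edgeR called 0 at 3 months and 1 at 9 months, or 1.05%, against 0.59% and 2.08% of all tested genes, and their medians were -0.01 and -0.03, against 0.003 and 0.007 in all tested genes. At an unadjusted p under 0.05 in edgeR 16 partners (16.8%) were found at 3 months and 8 (8.42%) at 9 months, against 11.2% and 13.6% of all tested genes. DESeq2 called 3 partners (3.16%) at 3 months, P4ha1, Serpinh1 and Ddit3, and 2 (2.11%) at 9 months, Colgalt1 and P4ha1, against 1.35% and 2.79% of all tested genes. At 3 months the share among partners was thus above that of all genes by these counts and below it by edgeR's calls, and nothing particular to the partners is read from them. The single edgeR call was Colgalt1, which adds galactose to the hydroxylysine that Plod1 makes in collagen. It rose by 0.27 ± 0.07 at 9 months (edgeR, adjusted p = 0.0395, and 0.00418 to 0.73 over 17 alternatives, 9 of which called it) and had 0.23 ± 0.07 at 3 months. In the same list P4ha1, a subunit of prolyl 4-hydroxylase, had -0.55 ± 0.11 at 3 months and -0.43 ± 0.11 at 9 months, and the collagen chaperone Serpinh1 had -0.64 ± 0.17 and -0.05 ± 0.17, with edgeR's adjusted p of P4ha1 just past the threshold at 0.0514 and 0.0757. The other lysyl hydroxylases Plod2 (0.15 ± 0.14 and 0.38 ± 0.14) and Plod3 (-0.13 ± 0.09 and -0.27 ± 0.09) had values of opposite sign.

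The other eIF2B subunits stayed within 0.21 of 0. Eif2b1, Eif2b2, Eif2b4 and Eif2b5 had log2 fold changes of 0.07 ± 0.07, 0.01 ± 0.09, 0.11 ± 0.07 and 0.02 ± 0.06 at 3 months, and of 0.04 ± 0.07, 0.03 ± 0.09, 0.11 ± 0.07 and 0.21 ± 0.06 at 9 months, where Eif2b3 had 0.37 and 0.40. Ddit3, the stress factor CHOP downstream of eIF2 phosphorylation, had -0.43 ± 0.10 at 3 months and 0.11 ± 0.10 at 9 months, and Atf4, the main translational target of that pathway, had -0.15 ± 0.06 and -0.01 ± 0.06, with no call by edgeR for either. Prkab1, the other AMPK beta subunit, had 0.26 ± 0.12 and 0.20 ± 0.12, opposite in sign to Prkab2, while the catalytic subunits Prkaa1 (0.09 ± 0.06 and 0.06 ± 0.06) and Prkaa2 (-0.14 ± 0.12 and -0.002 ± 0.12) and 6 further genes of this list were not called either.

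Relatives in the other families were mostly nearer to 0 than the named gene. Rims3, the other short RIM protein, had -0.30 ± 0.08 at 3 months and -0.14 ± 0.09 at 9 months, and the long forms Rims1 (-0.14 ± 0.06 and -0.11 ± 0.06) and Rims2 (-0.01 ± 0.06 and -0.03 ± 0.06) were nearer to 0. Spred2 had 0.04 ± 0.06 and 0.01 ± 0.06, and the related ERK inhibitor Spry4 had -0.32 ± 0.09 and -0.19 ± 0.09. Lman2, the Golgi relative of Lman2l, had -0.14 ± 0.06 and -0.04 ± 0.06, and Marcks had 0.05 ± 0.06 and -0.19 ± 0.06. Of 13 other Bardet-Biedl genes, Bbs5 had 0.18 ± 0.08 and 0.07 ± 0.08 and Bbs1 had -0.13 ± 0.09 and -0.17 ± 0.09, with a median of -0.02 at 3 months and -0.03 at 9 months. Armcx1 (0.08 ± 0.05 and -0.05 ± 0.05), Armcx3 (0.07 ± 0.05 and 0.01 ± 0.05) and Bhlhb9 (-0.05 ± 0.05 and -0.08 ± 0.05) were nearer to 0 than Armcx5. None of these relatives was called by genotype by edgeR or DESeq2 at either age. The difference between each named gene and its relatives was not tested, and the named genes had been picked by their genotype difference.

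**Figure D5:**
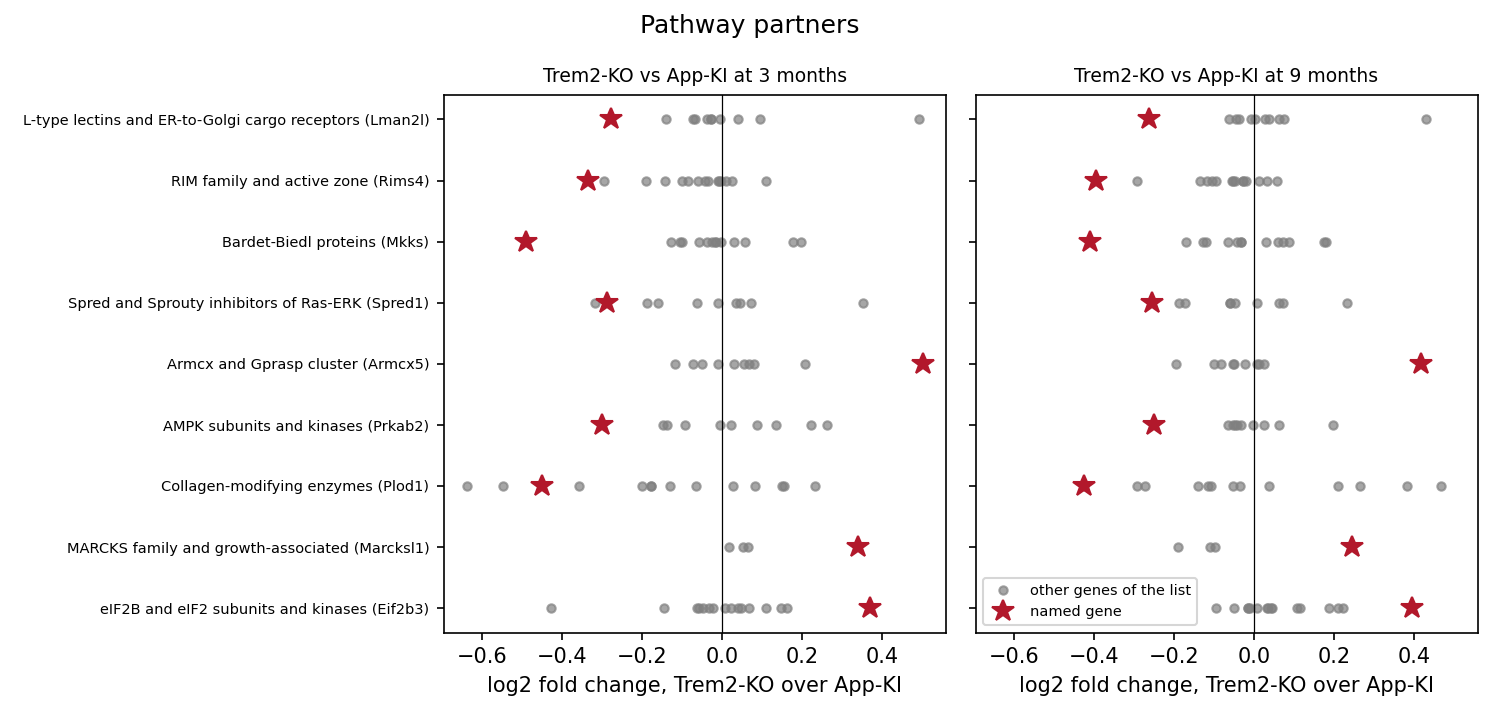
Log2 fold change of Trem2-KO over App-KI (horizontal axes) for the genes of 9 family or complex lists (rows) at 3 months (left) and 9 months (right); grey points are the other genes of each list, stars the named gene. Of the 95 grey genes 0 were called at 3 months and 1, Colgalt1, at 9 months.

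For each of the 9 genes, the gene whose log2 CPM ran most alike over the 12 libraries was sought among 12854 genes whose mean log2 CPM reached 1. Armcx5 ran most like Cirbp, an RNA-binding protein induced by mild cold (Pearson's r = 0.973 over 12 libraries, as a description), which had log2 fold changes of 0.77 at both ages. Plod1 ran most like Pdia6, a protein disulfide isomerase of the ER (r = 0.976), which had -0.71 at 3 months and -0.63 at 9 months. Rims4 ran most like Castor2, a regulator of mTORC1 (r = 0.966), with -0.28 at both ages, and Mkks like the poly(A) polymerase Papola (r = 0.962), with -0.24 and -0.17. Eif2b3 ran most like Rcor3 (r = 0.966; 0.35 and 0.38), a transcriptional corepressor. For Spred1 it was Katnal1 (r = 0.969; -0.17 and -0.20), a katanin-like protein, for Prkab2 the mitochondrial protein Rmnd1 (r = 0.919; -0.30 and -0.25), and for Lman2l the J-domain protein Dnajc28 (r = 0.946; -0.31 and -0.29). Marcksl1, the gene with an age change, ran most like the mitochondrial ADP/ATP carrier Slc25a4 (r = 0.982), with genotype values of 0.11 at both ages. None of these genes lies on the chromosome of the gene it resembles. The libraries share genotype and age groups, so these values reflect group differences as well as variation between mice.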

How the data were processed

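The authors deposited raw read counts per gene, whole numbers with no normalisation, for 12 libraries. Per the labels' protocols, RNA was extracted with a column kit and libraries were made with a SMART-Seq mRNA kit. Tools listed in the submitters' processing notes, without roles or settings, were DESeq2 1.36.0, R 4.2.0, featureCounts 2.0.3 and STAR 2.7.10a, with GRCm39 as the build. For strand use, annotation release and multi-mapping reads the entry is: not given in the sources used here. Symbols, gene order and exon overlaps came from GENCODE M21 on GRCm38, used for names and neighbourhood only (52125 of 56980 identifiers matched, and the others held at most 0.215% of reads).

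Genes were kept by filterByExpr (minimum count 10, minimum total 15), TMM-scaled and tested with edgeR 4.0.16 (R 4.3.3) by the quasi-likelihood F-test, robust, with 1 term per group over 12 libraries, with 8 residual degrees of freedom, and p-values were adjusted over 19152 genes after Benjamini and Hochberg. CPM uses scaled library sizes. Standard errors were derived from the F statistic. The limit for an unseen gene covers counting error only. The ± values are SDs over the mice of a group or standard errors of the edgeR model, and both include the spread between mice. The labels give each library its own mouse identifier but do not describe litters or batches, so p-values measure the spread between these mice. The test was tried on simulated counts.

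Family lists name 9 sets and marker lists 12 cell types. The 9 genes and all lists were chosen with earlier results of these data known. Genes named beside the 9 are list members called in any of the 5 comparisons or with the 3 smallest p by genotype in each list, neighbours called by genotype among 10 tested genes on each side, and the gene most alike to each of the 9. Subunits of the same complex named with values beyond these were chosen after their values were seen. The alternatives were DESeq2 1.42.0, its size factors in edgeR, no filter, fits over the 2 groups compared, each library left out, unscaled totals, a fibroblast score as covariate, and 5 or 20 neighbours on each side.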

Additional observations from a re-analysis of the deposited data

How the results depend on the processing

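The number of genes called over the whole table depended on the settings. At 3 months 113 genes were called by genotype, against 347 with no filter on low counts, 218 in a fit over the 2 groups compared and 259 by DESeq2, and 26 to 154 with each library left out in turn. At 9 months 398 were called, against 831 with no filter (437 higher and 394 lower, where the filtered fit had 131 higher and 267 lower) and 8 with the fibroblast score as covariate, and 175 to 556 with each library left out. By age, leaving out a library gave 2495 to 3497 calls averaged over genotypes. Within Trem2-KO the range was 769 to 1920, and within App-KI 788 to 1523. The 9 genes kept their genotype direction in all alternatives. Of the 9, 2 to 9 were called at 3 months and 3 to 9 at 9 months with a library left out, 1 to 2 by age, and 0 at 9 months with the covariate. Their 36 group levels moved by less than 1 SD on unscaled totals. The uncalled age changes of Prkab2 (-0.009 to 0.04) and Plod1 (-0.072 to 0.02) changed sign when a library was left out. Neighbours called were 3 at 3 months with 20 genes on each side, and 1 and 5 at 9 months with 5 and 20. The cause of these shifts was not tested, beyond the fewer samples and wider or narrower gene sets that the alternatives use. No paired analysis was possible because the labels give mouse identifiers and no replicate numbers shared between groups.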

Other observations

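With age, several partners of the 9 genes changed when both genotypes were averaged (edgeR, p adjusted over all tested genes). Of the 95 partner genes 10 rose and 11 fell at 9 months, or 22.1%, against 17.0% of all tested genes. At the synapse, Rims1, a long RIM protein of the release site, rose by 0.49 ± 0.04 on the log2 scale (adjusted p = 1.26e-07, called in all 15 alternatives), with 0.51 in Trem2-KO and 0.48 in App-KI mice. Rims2 (0.18 ± 0.04) and the liprin Ppfia3 (0.19 ± 0.04) rose as well, while the short form Rims3 (-0.21 ± 0.06, called in 12 of the 15) and the vesicle GTPase Rab3a (-0.14 ± 0.04) fell. Rims4 itself was not called by age. Camkk2, a kinase that activates AMPK, fell by 0.24 ± 0.03 (adjusted p = 4.93e-05). Gap43 (-0.27 ± 0.06) and Basp1 (-0.19 ± 0.04), membrane-bound proteins of growing axons, also fell. Within genotypes both were called in Trem2-KO (-0.325 and -0.281) and neither in App-KI (-0.21 and -0.106), a difference that was not tested. Marcksl1 was called in both genotypes.

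In the list of collagen-modifying enzymes, the prolyl 3-hydroxylases P3h2 (0.64 ± 0.13) and P3h3 (0.32 ± 0.07) rose at 9 months, as did Crtap (0.58 ± 0.11). Each was called in all 15 alternatives. P3h1 had 0.17 ± 0.10 and was not called. P4hb had 0.12 ± 0.04 and was called in only 4 of the 15. Within genotypes Crtap had 0.80 in Trem2-KO (edgeR, adjusted p = 0.00168) and 0.36 in App-KI (edgeR, adjusted p = 0.2), a difference that was not tested. The fibroblast list had a median of 1.115 in Trem2-KO with 5 of 10 markers called higher, and of -0.10 in App-KI with 0 called by edgeR or DESeq2 and 0 at an unadjusted p under 0.05, and its part in these rises was not tested. The interferon-induced eIF2 kinase Eif2ak2 rose by 0.54 ± 0.12. The BBSome subunit Bbip1 fell by 0.24 ± 0.05, and Ift27 by 0.26 ± 0.08 (called in 13 of the 15), while Mkks was not called. All of these changes are 9 over 3 months in mice with the knock-in, so age and amyloid load cannot be told apart.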
